A study of Mus musculus with 6 samples.

Results

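The 8 genes described here are Srebf2, Hmgcs1, Sqle, Insig1, Idi1, Fdft1, Cyp51 and Dhcr7, the regulator SREBP-2 with enzymes and a sensor of cholesterol synthesis. They were taken by name from the array annotation, each through a probe set with 1 gene symbol, and are 8 of 19938 genes measured. Fdft1 and Idi1 had a second probe set, and the one with the higher mean intensity was used. RNA came from mouse embryonic fibroblasts, cells grown out of embryos, that had received Oct4, Sox2 and Klf4 by retrovirus on day 0 and were collected on day 8 of reprogramming towards pluripotency. Each genotype gave 2 arrays: Foxd1+/+ (both copies of the forkhead factor gene Foxd1), Foxd1+/- (1 copy) and Foxd1-/- (none). All 6 arrays therefore share the viral factors, and uninfected cells are not analysed here. The labels call the arrays of a genotype biological replicates 1 and 2 without saying whether they came from separate embryos or cultures, so the p-values describe no more than the spread among these arrays. They give neither the strain nor the deleted part of Foxd1. The question addressed was how loss of 1 or both copies of Foxd1 bears on gene expression in cells under reprogramming.

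Cells make cholesterol from acetyl-CoA through mevalonate, isoprenoid diphosphates, squalene and lanosterol. SREBP-2, the product of Srebf2, is made as a membrane protein of the endoplasmic reticulum. When membrane cholesterol falls, its escort SCAP carries it to the Golgi, where proteases free the part that enters the nucleus and switches on the enzyme genes. Insig proteins hold SCAP back when sterols are plentiful, and both Srebf2 and Insig1 are themselves SREBP targets. Proliferating fibroblasts rely on this pathway for new membrane when they cannot take up enough lipoprotein cholesterol.

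The promoters are shown because SREBP-2 controls this pathway through them. RefSeq (build GRCm38.p6) gave start-site windows for 6 of the 8 genes, from 250 bases before to 50 bases after the start. Those of the regulator, of the first cytosolic enzyme of the group and of the sensor follow, 5′ to 3′ on the plus strand. Capitals mark matches, on either strand, to TCACNCCAC or its first letters TCACNCCA (core of the sterol regulatory element), CCAAT (the NF-Y box, ATTGG on the other strand) and GGGCGG (a GC box of Sp1, CCGCCC on the other strand).
Srebf2, chr15:82147019-82147318: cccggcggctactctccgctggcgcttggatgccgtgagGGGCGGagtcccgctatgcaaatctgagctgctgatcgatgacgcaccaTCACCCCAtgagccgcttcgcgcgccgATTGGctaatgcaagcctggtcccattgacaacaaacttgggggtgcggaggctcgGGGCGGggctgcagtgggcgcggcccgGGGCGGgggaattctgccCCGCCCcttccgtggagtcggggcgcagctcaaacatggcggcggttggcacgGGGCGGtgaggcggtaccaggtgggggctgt
Hmgcs1, chr13:119690101-119690400: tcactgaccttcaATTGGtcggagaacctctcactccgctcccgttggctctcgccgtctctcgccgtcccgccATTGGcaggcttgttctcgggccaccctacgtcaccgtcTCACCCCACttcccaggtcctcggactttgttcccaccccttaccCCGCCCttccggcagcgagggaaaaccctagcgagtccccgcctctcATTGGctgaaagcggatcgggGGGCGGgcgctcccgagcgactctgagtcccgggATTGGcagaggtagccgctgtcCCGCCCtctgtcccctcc
Insig1, chr5:28071162-28071461: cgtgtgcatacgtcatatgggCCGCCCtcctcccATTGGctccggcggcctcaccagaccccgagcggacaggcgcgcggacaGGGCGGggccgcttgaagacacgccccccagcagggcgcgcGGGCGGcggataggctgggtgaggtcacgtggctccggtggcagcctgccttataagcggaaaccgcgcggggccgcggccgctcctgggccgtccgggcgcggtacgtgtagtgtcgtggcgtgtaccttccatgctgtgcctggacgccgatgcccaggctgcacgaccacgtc

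Among the members with a window, TCACNCCAC was found in that of Hmgcs1 alone, beginning 137 bases before the start. Of all 32851 windows of this length in the table, 1.24% held it. The form shorter by 1 base, TCACNCCA, which every match to the longer form contains, was chosen after the members' promoters had been read. It was also present in the Srebf2 window, 162 bases before the start, and in 4.36% of all windows. CCAAT occurred 4 times in the Hmgcs1 window, and at least once in a window of each of the other 5 genes, against 37.4% of all windows. Srebf2 held 5 GC boxes, Hmgcs1 3 and Insig1 3, and a window of each of Idi1, Cyp51 and Dhcr7 also held one, while 35.7% of all windows did. The shares count windows, and Dhcr7 had 3 of the members' 8 windows. In Dhcr7, CCAAT was in window 3 alone and a GC box in windows 1 and 3. These are matches of letters only.

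The label of the targeted gene was checked first. Foxd1 read 1907.2 and 1169.1 on the Foxd1+/+ arrays (replicate 1, then 2), then 1013.7 and 2073.6 for Foxd1+/-, with only 189.1 and 213.1 for Foxd1-/-. It was 7.41-fold lower in Foxd1-/- than in Foxd1+/+, a log2 difference of -2.89 ± 0.41 (SE, limma unadjusted p = 0.00111, adjusted p = 0.99985 over all genes). The Foxd1+/+ and Foxd1+/- arrays overlapped, and in replicate 2 the Foxd1+/- array read higher than the Foxd1+/+ array. The members' median in each comparison of genotypes is therefore also given without both arrays. Median intensity per array was 76.5 to 79.6 and the lowest value on any array 19.5. All 12 fibroblast markers read at least 237 on every array, with summed intensities of 30530 to 38719 in Foxd1+/+, 31426 to 37808 in Foxd1+/- and 36292 to 44137 in Foxd1-/-.

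Each of the 8 genes was well above the array median on all 6 arrays, with intensities from 462.1 (Dhcr7) to 2362.5 (Insig1). Their levels varied little: from the lowest to the highest array, the log2 range was 0.15 for Cyp51 to 0.43 for Insig1, with a median of 0.26. Over all genes the median range was 0.23, and over the 3856 genes with a mean intensity of at least 400 it was 0.27. Values below are intensities on the linear scale as deposited, given for replicate 1 and then replicate 2, and differences are in log2(intensity + 1) with the standard error of the limma fit.

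Srebf2, the regulator, read 1318.4 and 1244.8 in Foxd1+/+, 1300.8 and 1316.7 in Foxd1+/-, with 1380.8 and 1492.7 in Foxd1-/-. Both Foxd1-/- arrays lay above the other 4. Group means were 1282 ± 52.1 (SD, n = 2), 1309 ± 11.2 and 1437 ± 79.2. The Foxd1-/- level was 1.12-fold that of Foxd1+/+ (95% interval 0.995 to 1.26), a log2 difference of 0.16 ± 0.07 with 0.07 in replicate 1 and 0.26 in replicate 2. Against Foxd1+/- it was 0.13 ± 0.07, with 0.09 and 0.18. Neither passed the test (limma unadjusted p = 0.0568 and 0.10, adjusted p = 0.99985 and 0.99999). In Foxd1+/- against Foxd1+/+ the difference was 0.03 ± 0.07, and the arrays overlapped.

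Insig1, which encodes the sterol-dependent anchor of SCAP, read 1776.6 and 2058.1 in Foxd1+/+, 1755.3 and 1992.2 in Foxd1+/-, with 1883.9 and 2362.5 in Foxd1-/-. Replicate 2 was the higher array in every genotype, and the genotypes overlapped. The difference between Foxd1-/- and Foxd1+/+ was 0.14 ± 0.15, with 0.08 in replicate 1 and 0.20 in replicate 2, and that between Foxd1-/- and Foxd1+/- was 0.17 ± 0.15, with 0.10 and 0.25. The step from replicate 1 to replicate 2, at 0.21, 0.18 and 0.33 in Foxd1+/+, Foxd1+/- and Foxd1-/-, was larger in each genotype than either of these fitted differences. With the replicate number as a block, the 95% interval against Foxd1+/- was 0.011 to 0.34 (limma unadjusted p = 0.0408, adjusted p = 0.638).

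The early, mevalonate part of the route is represented by Hmgcs1 and Idi1. Hmgcs1, the cytosolic HMG-CoA synthase that precedes mevalonate, read 1801.5 and 1864.4 in Foxd1+/+, 1738.7 and 1897.7 in Foxd1+/-, with 1866.0 and 2000.1 in Foxd1-/-. The Foxd1-/- arrays lay just above those of Foxd1+/+, by a log2 difference of 0.08 ± 0.07, and overlapped those of Foxd1+/-. Idi1, the isomerase of the isoprenoid diphosphates, read 879.8 and 876.3 in Foxd1+/+, 987.7 and 746.8 in Foxd1+/-, with 938.4 and 892.8 in Foxd1-/-. Here the 2 Foxd1+/- arrays were the highest and the lowest of all 6, and the Foxd1-/- arrays lay between them. The second probe set of Idi1 showed the same order within Foxd1+/-, 941.8 and 729.0. Whether either of these probe sets also reads a near copy of Idi1 was not tested.

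At the squalene steps, Fdft1 and Sqle differed in their pattern over the arrays. Fdft1, squalene synthase, read 2105.2 and 2096.9 in Foxd1+/+, 2102.5 and 2017.9 in Foxd1+/-, with 2189.7 and 1872.0 in Foxd1-/-, so that Foxd1-/- held both the highest and the lowest array. Its other probe set gave 1837.3 and 1834.6 in Foxd1-/- and did not show that low value. The difference from Foxd1+/+ was -0.05 ± 0.09 with the first probe set and 0.06 with the second, so its sign depends on the probe set. Both probe sets cite the same transcripts, and whether either also reads a near copy of the gene was not tested. Sqle, squalene epoxidase, read 849.8 and 929.1 in Foxd1+/+, 840.9 and 887.4 in Foxd1+/-, with 832.1 and 1000.3 in Foxd1-/-. Replicate 2 was higher in each genotype, and the 2 Foxd1-/- arrays spanned all the others.

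Of the later enzymes, Cyp51, the lanosterol demethylase, varied least. It read 652.9 and 675.4 in Foxd1+/+, 640.3 and 618.0 in Foxd1+/-, with 626.2 and 686.3 in Foxd1-/-. Both Foxd1+/- arrays lay below both Foxd1+/+ arrays, by a log2 difference of -0.08 ± 0.07 that did not pass the test (limma adjusted p = 0.99999). Dhcr7, the reductase that makes cholesterol in the final step of one branch, read 462.1 and 514.1 in Foxd1+/+, 465.2 and 530.4 in Foxd1+/-, with 496.9 and 599.0 in Foxd1-/-. As with Insig1, replicate 2 was the higher array in every genotype and the genotypes overlapped. Its difference between Foxd1-/- and Foxd1+/+ was 0.16 ± 0.13, with 0.10 in replicate 1 and 0.22 in replicate 2. Without replicate 2 of Foxd1-/- this difference was 0.028, and without replicate 1 it was 0.30. Such a run sets the remaining Foxd1-/- array against both Foxd1+/+ arrays. The step between the replicate numbers, 0.20 for Dhcr7, therefore enters it. Against Foxd1+/- the difference of 0.13 ± 0.13 became 0.00037 and 0.27 in the same way. With the replicate number as a block, the 95% interval against Foxd1+/+ was 0.0092 to 0.32 (limma unadjusted p = 0.0416, adjusted p = 0.65).

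**Figure D1:**
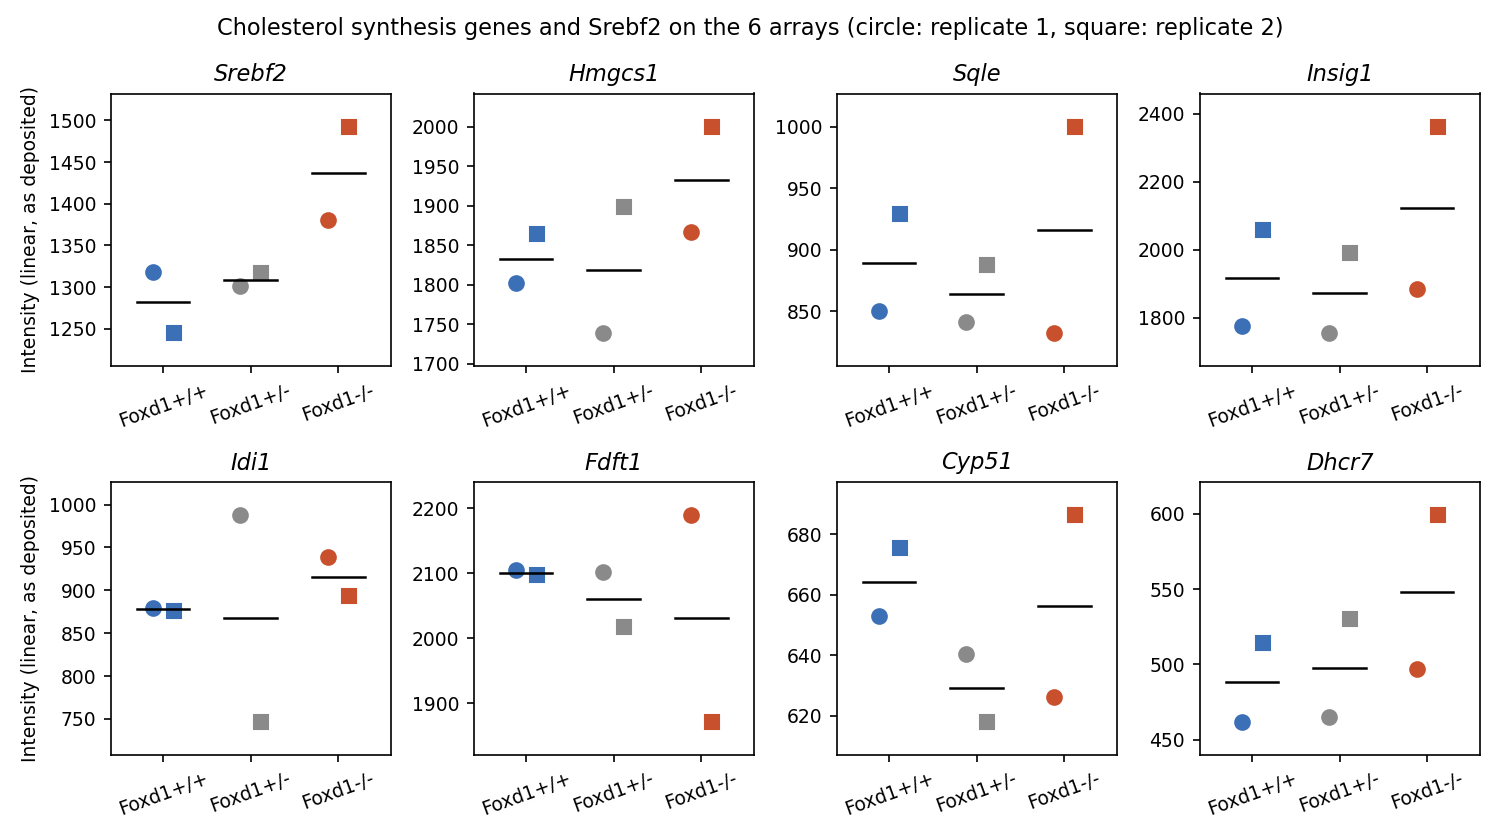
Intensity (linear scale, vertical axes not starting at 0 and differing between panels) of each of the 8 genes on the 6 arrays by genotype; circles are replicate 1, squares replicate 2 and bars the mean of 2 arrays. Srebf2 is the gene whose Foxd1-/- arrays, 1380.8 and 1492.7, both lie above the other 4, and Idi1 has its highest and lowest arrays in Foxd1+/-.

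No member passed the test in any comparison of genotypes, and neither did any other gene. In Foxd1-/- against Foxd1+/+, 6 members were higher and 2 lower, with a median log2 difference of 0.07 against 0.003 over all genes. By limma, 0 members and 0 of 19938 genes (percent called 0, with or without the replicate number as a block) had an adjusted p under 0.05, while 421 genes had an unadjusted p under 0.05, and 1503 with the block. Srebf2, Hmgcs1, Insig1, Idi1 and Dhcr7, 5 of 8, were higher in Foxd1-/- within each replicate number, as were 29.5% of all genes. Arrays did not overlap for 3 of 8, Srebf2, Hmgcs1 and Idi1, against 13.6% of all genes. The 95% intervals of the 8 fold values ran from 0.808 at the lowest to 1.44 at the highest. Within replicate 1 the median was 0.06 and within replicate 2 it was 0.10. In the unpaired fit, leaving out replicate 2 of Foxd1-/- took the median to 0.027 and leaving out replicate 1 took it to 0.15. Without the replicate 2 arrays of Foxd1+/+ and Foxd1+/- it was 0.10, and 7 of 8 differences kept their sign, the exception being Cyp51. That run sets both Foxd1-/- arrays against replicate 1 of Foxd1+/+, so the step between the replicate numbers enters it. The median within replicate 1, 0.06, is free of that step.

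Against Foxd1+/-, 7 members were higher in Foxd1-/- and 1 lower, with a median of 0.09 against -0.003 over all genes. Again limma called 0 members and 0 genes (percent called 0, with or without the block), with 460 genes at an unadjusted p under 0.05 and 1507 with the block. Srebf2, Hmgcs1, Insig1 and Dhcr7 were higher within each number, 4 of 8 against 26.6% of all genes, and for Srebf2 the arrays did not overlap, 1 of 8 against 12.0%. The fold intervals ran from 0.826 to 1.47. This comparison shares its Foxd1-/- arrays with the previous one, and the 2 sets of values are not independent. The median was 0.13 without the replicate 2 arrays of Foxd1+/+ and Foxd1+/-, a run that the step between the replicate numbers also enters. Within replicate 1 alone it was 0.07.

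Between Foxd1+/- and Foxd1+/+, 2 members were higher and 6 lower, with a median of -0.03 against 0.002 over all genes. The limma test called 0 members and 0 genes (percent called 0, with or without the block), and 193 genes had an unadjusted p under 0.05, 400 with the block. Within each number Dhcr7 was higher, 1 of 8 against 22.0% of all genes, and Cyp51, Fdft1, Insig1 and Sqle were lower, 4 of 8 against 18.7%. Fold intervals ran from 0.749 to 1.28. The median was -0.016 without the replicate 2 arrays of both genotypes. With 2 arrays against 2, an exact two-sided rank test cannot give a p below 0.333.

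**Figure D2:**
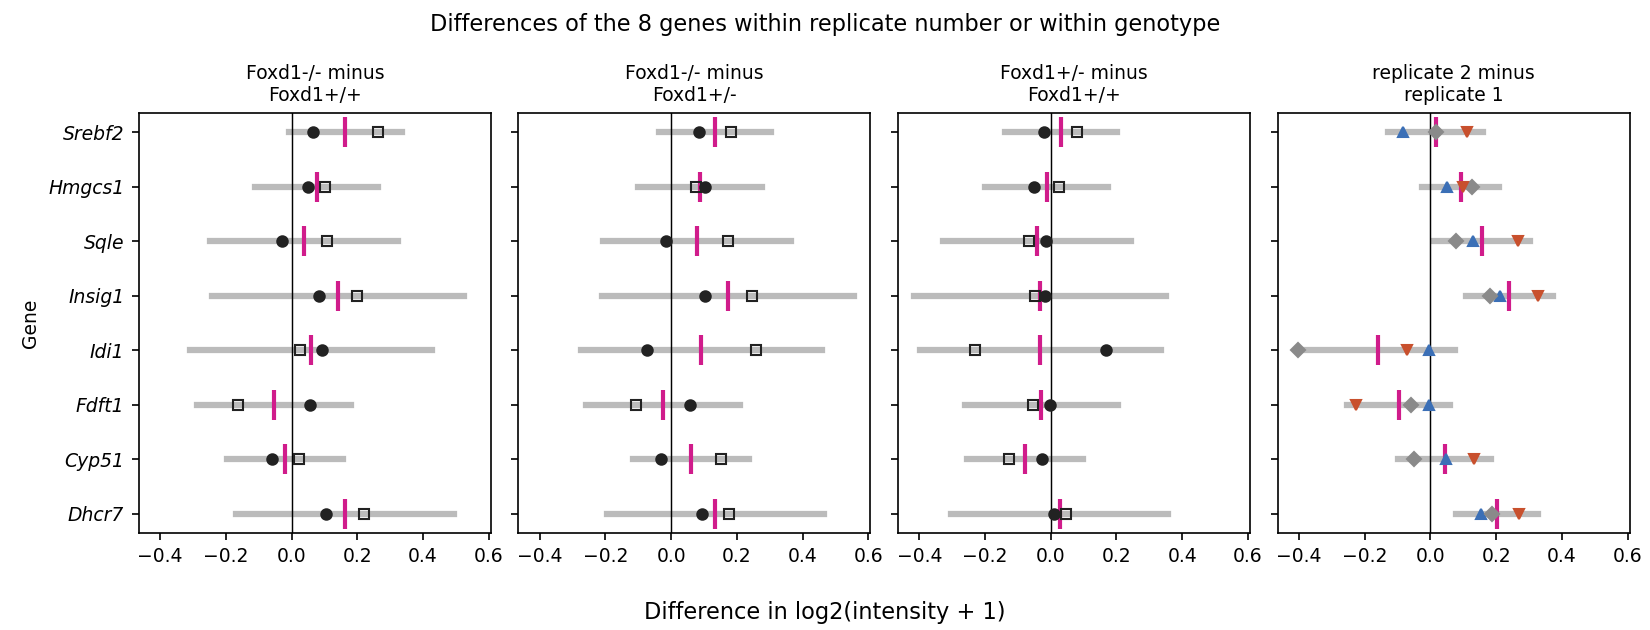
Differences of the 8 genes in log2(intensity + 1) for the 3 genotype comparisons and for replicate 2 minus replicate 1. Pink ticks are the fitted difference and grey bars its 95% interval; filled circles and open squares are the differences within replicate 1 and within replicate 2, and triangles and diamonds those within Foxd1+/+, Foxd1+/- and Foxd1-/-. Every grey bar of the genotype panels, drawn without the replicate block, crosses 0; with the block those of Dhcr7 against Foxd1+/+ and Insig1 against Foxd1+/- would not.

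For all members but Srebf2 and Cyp51, the fitted difference between replicate numbers was larger in size than that between any pair of genotypes. The sizes were not tested against each other, and for Hmgcs1 they were close, 0.092 against 0.089 in Foxd1-/- against Foxd1+/-. Insig1 was higher in replicate 2 by 0.24 ± 0.05, Dhcr7 by 0.20 ± 0.05 (0.15, 0.19 and 0.27 in Foxd1+/+, Foxd1+/- and Foxd1-/-), Sqle by 0.16 ± 0.06 (0.13, 0.08 and 0.27) and Hmgcs1 by 0.09 ± 0.05 (0.05, 0.13 and 0.10). None of them passed the threshold after adjustment over all genes (limma adjusted p = 0.058, 0.072, 0.169 and 0.301; unadjusted p = 0.00588, 0.00886, 0.039 and 0.0994). For Insig1, Dhcr7 and Sqle, the 3 replicate 2 arrays did not overlap the 3 replicate 1 arrays, against 15.2% of all genes higher with no overlap. Idi1 and Fdft1 were lower in replicate 2, by -0.16 ± 0.09 and -0.10 ± 0.06, and Srebf2 (0.02 ± 0.06) and Cyp51 (0.04 ± 0.05) did not keep a direction over the genotypes.

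In all, 4 of 8 members were higher in replicate 2 within each genotype, against 22.6% of all genes, and 2 of 8 were lower, against 22.8%. Of all genes, 8.85% (1764) passed the limma test between the numbers, with 966 higher and 798 lower in replicate 2, and 0 of 8 members did. That count fell to 0 when either array of Foxd1-/- was left out (smallest limma adjusted p = 0.056 in each case), so every call between the numbers named further on is lost there too. What the numbers mark, such as a culture or a day, is not stated in the labels.

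Described over the 6 arrays, Insig1, Dhcr7, Hmgcs1 and Sqle ran together, with Pearson r of 0.81 to 0.98 in their 6 pairs. These 4 were grouped after the values were seen. They are the members that were higher in replicate 2 within each genotype, so their high r is no separate result. Srebf2 correlated with these 4 at 0.45 to 0.67, Cyp51 at 0.38 to 0.76, Idi1 at -0.44 to -0.26 and Fdft1 at -0.87 to -0.72. The r of Fdft1 holds for the probe set used, which read 2189.7 and 1872.0 in Foxd1-/-. Its other probe set read 1837.3 and 1834.6 there, and no r was computed for it, so the negative r may not hold for the gene. The points share 2 replicate numbers and 3 genotypes and are not 6 independent samples. Replicate 2 of Foxd1-/- was the highest of the 6 arrays for 6 of the 8 members (75% of members, 20.8% of all genes). The mean of the 8 centred log2 levels was 0.11 on that array and between -0.05 and 0.01 on the other 5.

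That array also stood at the end of other gene lists. On the same centred scale, fibroblast markers were at 0.37 there and between -0.29 and 0.09 on the others, interferon response genes at 1.18 against -1.08 to 0.76, and cell cycle genes at -0.47 against -0.06 to 0.24. Macrophage markers were at -0.19 there and between -0.13 and 0.15 elsewhere. The part of these shifts in the members' values was not tested. In bulk RNA, fewer cells of a type and less RNA per cell cannot be told apart.

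**Figure D3:**
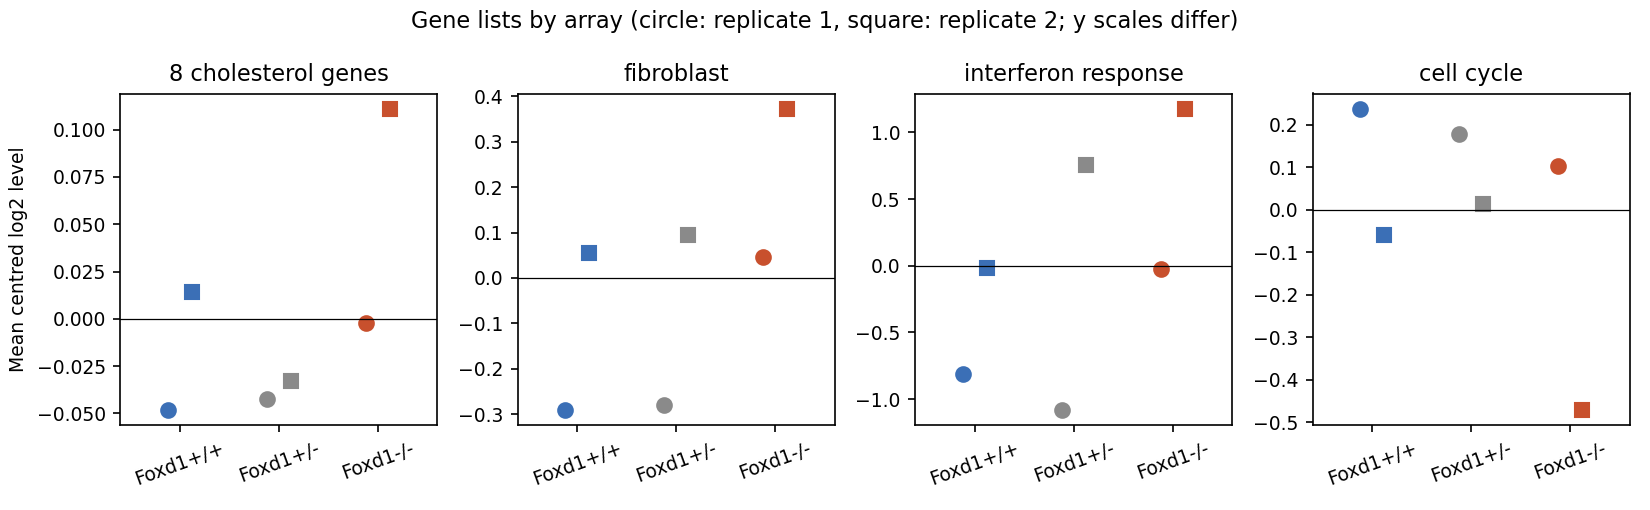
Mean log2(intensity + 1) of each list, centred per gene on the 6 arrays, for the 8 cholesterol genes, fibroblast markers, interferon response and cell cycle genes by genotype (circles replicate 1, squares replicate 2; vertical scales differ). Replicate 2 of Foxd1-/- is the highest point for the cholesterol genes (0.11), fibroblast markers (0.37) and interferon genes (1.18) and the lowest for cell cycle genes (-0.47).

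Levels of the other enzymes of the route differed among themselves in shape over the arrays. Of 15 listed, 12 were measured and the rest are not analysed here. In Foxd1-/- against Foxd1+/+, 7 were higher and 5 lower (median 0.02), and in Foxd1-/- against Foxd1+/- 8 were higher and 4 lower (median 0.04), with 0 called by limma in each. For 8 of the 12, replicate 1 of Foxd1+/- was the highest array (66.7%, against 16.2% of all genes), and for 7 of 12 replicate 2 of Foxd1+/- was the lowest (58.3%, against 16.4%). Idi1 had this same shape. Its level correlated over the 6 arrays with those of Mvd (r = 0.95) and Pmvk (0.93), neighbours of Idi1 in the mevalonate steps, and of Hsd17b7 (0.91), a sterol ketoreductase. Mvd, for example, read 551.5 and 471.9 in Foxd1+/- and between 520.6 and 534.6 on the other arrays, and Hsd17b7 read 817.7 and 611.7 in Foxd1+/- and 664.5 to 739.3 elsewhere. These 3 genes were picked by their r after the values were seen.

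Ebp, the sterol isomerase, was the 1 enzyme of 12 called between the replicate numbers, a share near the 8.85% of all genes. It read 781.8 and 611.0 in Foxd1+/+, 784.7 and 584.5 in Foxd1+/-, with 739.2 and 612.0 in Foxd1-/-, and was lower in replicate 2 in every genotype (log2 difference -0.35 ± 0.05, limma adjusted p = 0.026). Insig1, Dhcr7 and Sqle ran the other way between the same arrays. Lbr, a sterol reductase that is also a protein of the nuclear envelope, had the lowest r of the 12 enzymes with the mean of the 8 members, -0.95, and is described for that reason. Tm7sf2, another sterol reductase (r = 0.72), and Lss, lanosterol synthase (r = 0.68), had the highest. Lbr read 1009.3 and 813.9 in Foxd1+/+, 934.8 and 946.7 in Foxd1+/-, with 937.1 and 715.5 in Foxd1-/-.

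**Figure D4:**
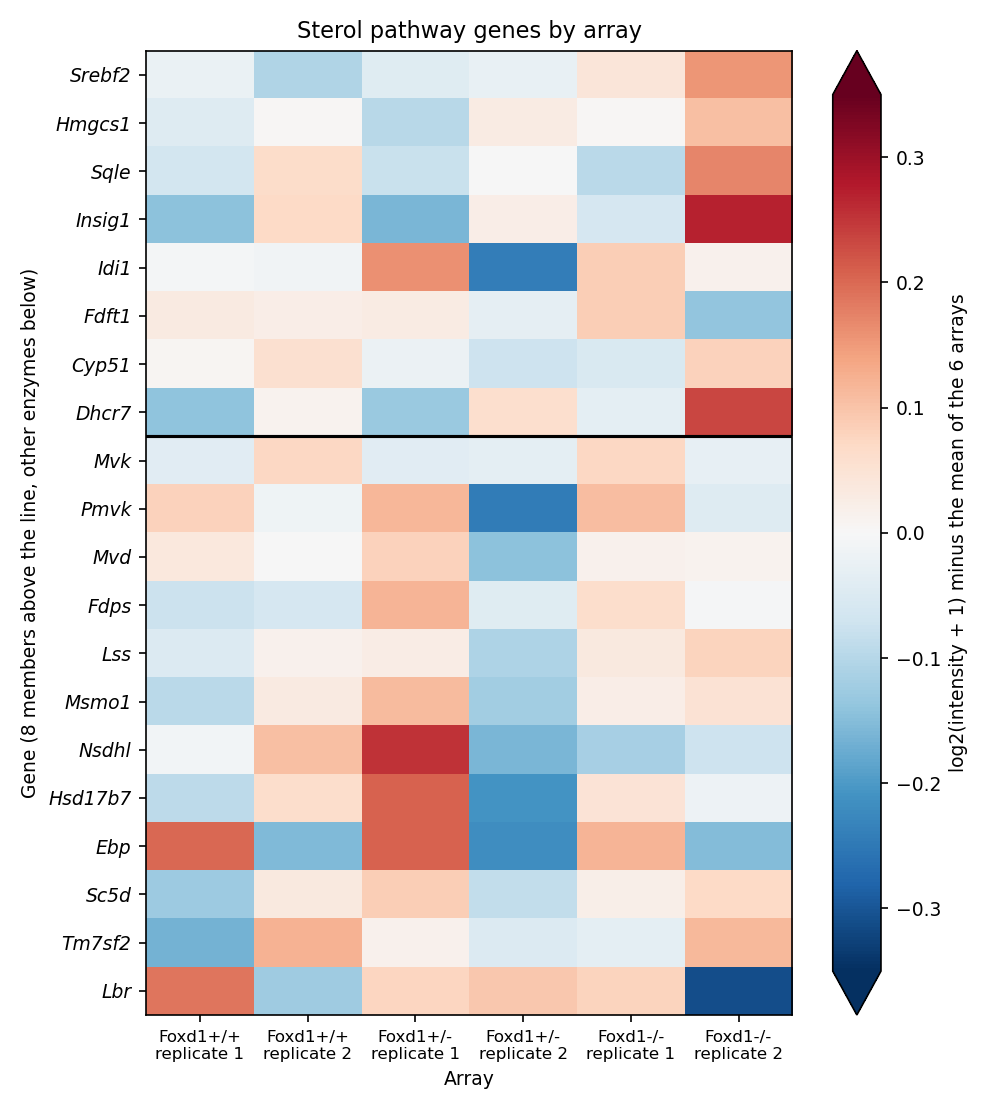
Centred log2(intensity + 1) of the 8 members (above the line) and 12 other enzymes (below) on the 6 arrays, with red above and blue below the mean of the gene. Most members are red in replicate 2 of Foxd1-/-, while Idi1 and most other enzymes are red in replicate 1 and blue in replicate 2 of Foxd1+/-.

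Genes that control SREBP-2 gave 10 measured of 12 listed, with 8 higher and 2 lower in Foxd1-/- against each of the other genotypes (medians 0.06 and 0.05) and 0 called by limma. Mbtps1, the Golgi protease that makes the first cut in SREBP-2, had the smallest p of them at 0.14 ± 0.06 in each comparison (limma unadjusted p = 0.0763 and 0.0724, adjusted p = 0.99985 and 0.99999). Between the replicate numbers 6 were higher and 4 lower, and Rnf139, a ubiquitin ligase of the endoplasmic reticulum, rose in replicate 2 (0.36 ± 0.06, limma adjusted p = 0.039). That was 1 call in 10 genes, against 8.85% of all genes.

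Cholesterol uptake and transport had 9 genes measured of 12, with 7 higher and 2 lower in Foxd1-/- against Foxd1+/+ (median 0.14) and against Foxd1+/- (median 0.12), 0 called in each. In replicate 2, 8 of 9 were higher (median 0.21), and Lrp1, a large endocytic receptor of the lipoprotein receptor family, passed (0.57 ± 0.05, limma adjusted p = 0.010). Lrp1 was the 1 call in 9 genes, against 8.85% of all genes. Targets and receptors of LXR, the sensors of oxysterols that drive cholesterol export, had 6 measured of 7. They split 4 higher and 2 lower in Foxd1-/- against each other genotype (medians 0.06 and 0.04). Between the numbers their median was 0.24 with 0 called, Abca1 and Mylip lying nearest (0.25 ± 0.05 and 0.36 ± 0.07, limma adjusted p = 0.051 in each).

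Fatty acid synthesis genes, the programme of the related SREBP-1, were all 15 measured. In Foxd1-/- against Foxd1+/+ 10 were higher and 5 lower (median 0.07), against Foxd1+/- 11 and 4 (median 0.03), with 0 called. Mid1ip1, a regulator of acetyl-CoA carboxylase, was at 0.28 ± 0.09 and 0.26 ± 0.09 (limma unadjusted p = 0.0256 and 0.0328, adjusted p = 0.99985 and 0.99999). In replicate 2 the elongase Elovl6 fell (-0.47 ± 0.07, limma adjusted p = 0.023) and the desaturase Fads1 rose (0.29 ± 0.06, limma adjusted p = 0.046). These were 2 calls in 15 genes, against 8.85% of all genes. The non-sterol branches, which make prenyl groups, dolichol and ubiquinone, had 8 of 10 measured, with 4 higher and 4 lower in Foxd1-/- against Foxd1+/+ and 3 and 5 against Foxd1+/-. Pggt1b, the catalytic subunit of a geranylgeranyl transferase, rose in replicate 2 (0.24 ± 0.04, limma adjusted p = 0.041), the 1 call in 8 genes against the same 8.85%. The 7 oxysterol and bile acid enzymes had medians of -0.04, -0.01 and 0.08 in Foxd1-/- against Foxd1+/+, in Foxd1-/- against Foxd1+/- and between the numbers, with 0 called.

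Markers of other cells and states were read beside the members. In Foxd1-/- against Foxd1+/+, fibroblast markers were higher for 11 of 12 (median 0.31), macrophage markers lower for 9 of 10 (median -0.16), interferon genes higher for 10 of 10 (median 0.96) and cell cycle genes lower for 11 of 11 (median -0.30), with 0 called by limma. Between the numbers limma called 6 of 12 fibroblast, 5 of 10 interferon, 3 of 11 cell cycle and 2 of 10 macrophage genes, and 1 gene in each of the endothelial, epithelial, adipocyte and hepatocyte lists, against 8.85% of all genes. The medians of replicate 2 against replicate 1 were 0.37 for fibroblast, 1.45 for interferon and -0.34 for cell cycle genes. All of these were larger in size than the genotype medians above. For macrophage markers that median was 0.05, smaller in size than between the genotypes. Endothelial and epithelial markers had medians of -0.03 and -0.02 in Foxd1-/- against Foxd1+/+. Adipocyte and hepatocyte lists, tissues with strong sterol and lipid synthesis, had summed intensities of 260 to 294 and 207 to 300 over 6 and 5 genes, with medians of 0.06 and -0.01. Adipoq, the defining adipocyte hormone, read 24.4 to 26.4, near the lowest value on the arrays.

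Of 5562 genes with a mean intensity of at least 100 and an SD of at least 0.1 over the arrays, the closest in profile to the mean of the 8 members were Apol6, Zfp318, Nes, Ogt and Wdr13, with r of 0.98 to 0.99 over 6 arrays. All of these were highest in replicate 2 of Foxd1-/-, Apol6 at 531.9 there and 121.6 to 192.7 on the other arrays, and Nes, the intermediate filament nestin, at 616.5 there and 487.2 to 521.9 elsewhere. In all, 81 genes had r of at least 0.95 and 85 had r of -0.95 or below.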

How the data were processed

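Linear intensity values for 28856 probe sets on 6 single-colour Affymetrix arrays were deposited by the authors. How they were background-corrected, normalized and summarised was not given in the sources used here, and no detection calls were used. Per the labels' protocols, total RNA was copied into biotin-labelled target by the whole transcript method. Arrays were grouped by the genotype in their titles. Gene names came from the platform annotation: 21789 probe sets had 1 symbol and were used, 1621 had several and 5446 had none. Where a gene had more than 1 probe set (999 genes), that of highest mean intensity stood for it.

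Values computed here from the deposited intensity values were log2(intensity + 1), a scale on which differences of dim genes are understated. limma 3.58.1 (R 4.3.3; lmFit, eBayes) fitted 1 mean per genotype on all 6 arrays, with Benjamini-Hochberg adjustment over 19938 genes and a threshold of 0.05. The replicate numbers were compared with genotype in the fit. Scripts were tested on simulated data.

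Deviations of same-numbered arrays correlated over genes, with r of 0.55, 0.73 and 0.73 for the 3 pairs of genotypes. For the within-number differences and the block, arrays of the same number were taken as paired on this evidence alone. The labels do not say what the numbers mark. The main genotype fit, with its standard errors, intervals and p-values, has no replicate term. In Foxd1-/- against Foxd1+/+ the standard error of Insig1 was 0.15 without the block and 0.06 with it, and that of Srebf2 0.07 in each.

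The members, the 15 gene lists and the motifs were chosen with earlier results of these data known. Genes named are the 8 members, Foxd1, other cholesterol enzymes, in each further list those past the threshold or up to 3 with the smallest p, and the 5 with the profile most like the members (provisional names left out). Adipoq was named for its role. Alternatives were another pseudocount (32), a filter on low values, quantile and median scaling, other probe sets, the replicate block, no genotype term and leaving out arrays. Figures used matplotlib 3.10.9.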

Additional observations from a re-analysis of the deposited data

How the results depend on the processing

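With 2 arrays per genotype, the number of arrays limits the precision. With the replicate block, limma called 0 genes in each genotype comparison, as without it (smallest adjusted p = 0.489, 0.451 and 0.99999 in the order Foxd1-/- against Foxd1+/+, Foxd1-/- against Foxd1+/-, Foxd1+/- against Foxd1+/+), and it changed no call. Dhcr7 in the first (unadjusted p = 0.0416, limma adjusted p = 0.65) and Insig1 in the second (0.0408, limma adjusted p = 0.638) stayed above the threshold. Of the 310 values outside the runs that leave out 1 array, 298 kept their direction, their side of the threshold or, for medians, stayed within the spread; the exceptions follow, and where no construction shows it the cause was not tested. Fdft1 changed sign with the mean of all probe sets (0.0033 and 0.038 in the first and second comparisons) and with its other probe set (0.060 and 0.10). Without the replicate 2 arrays of Foxd1+/+ and Foxd1+/-, an alternative chosen after seeing the data, the median of the first comparison moved to 0.10, Cyp51 there to 0.0058, Idi1 to -0.11 in the second and 0.17 in the third, and Srebf2 to -0.019 in the third. Between the replicate numbers, Srebf2 went to -0.0073 with quantile normalization and -0.013 with aligned medians, and Insig1 passed with quantile normalization (0.23, limma adjusted p = 0.049). Leaving out each array in turn, the medians ranged from 0.027 to 0.15, 0.025 to 0.16 and -0.060 to 0.019 in the 3 comparisons, and the genes called between the numbers from 0 (without either Foxd1-/- array) to 1389. Members that changed sign in such a run ranged, in the first comparison, from -0.095 to 0.17 (Sqle), -0.021 to 0.30 (Insig1), -0.17 to 0.060 (Fdft1) and -0.085 to 0.047 (Cyp51). In the second they ranged from -0.054 to 0.21 (Sqle), -0.11 to 0.29 (Idi1), -0.14 to 0.088 (Fdft1) and -0.0067 to 0.13 (Cyp51). In the third they ranged from -0.011 to 0.072 (Srebf2), -0.076 to 0.050 (Hmgcs1), -0.11 to 0.024 (Sqle), -0.14 to 0.074 (Insig1), -0.23 to 0.17 (Idi1), -0.058 to 0.0010 (Fdft1) and -0.067 to 0.12 (Dhcr7). Between the numbers they ranged from -0.033 to 0.065 (Srebf2) and -0.0011 to 0.090 (Cyp51). Members that kept their sign in the first 2 comparisons still moved: Srebf2 0.11 to 0.22 and 0.077 to 0.19, Hmgcs1 0.026 to 0.13 and 0.026 to 0.15, Dhcr7 0.028 to 0.30 and 0.00037 to 0.27, Idi1 0.024 to 0.096 (first) and Insig1 0.011 to 0.34 (second). Without the replicate 2 arrays of Foxd1+/+ and Foxd1+/-, the step between the replicate numbers enters the first 2 comparisons. The genotype fits that leave out 1 array do not pair the arrays either, so the step enters them too. Insig1, for example, changed sign in the first comparison but was 0.08 and 0.20 within replicates 1 and 2.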
